A study of Mus musculus with 8 samples.

Results

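The filament genes described here are 9 genes of the intermediate filament family, Synm, Vim, Des, Nes, Krt7, Krt8, Krt18, Krt19 and Krt20, read with 13 array probes. They were taken as every non-control probe whose transcript accession carries 1 of these 9 symbols, and all 13 probes passed the filter on dim signals, so all 9 were among the 14473 genes that could be tested. RNA was measured on 8 one-colour Agilent arrays, 1 per sample, from primary cultures of the kidney's proximal tubule cells, which take up most of what the nephron filters. The cultures came from the kidney cortex of male C57/BJ mice (strain as labelled) aged 6 weeks, were grown to confluence from trypsin-released tubules and were then moved to serum-free DMEM. 4 samples received 1 uM GW4064 for 24 h, and 4 received DMSO, its solvent, for 24 h. The compound GW4064 activates FXR, the bile acid receptor encoded by Nr1h4. Whether the samples of a group stem from different animals or dishes is not stated, so errors and p-values cover only how these samples spread, which may be technical.

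Intermediate filaments are the rope-like, stress-bearing part of the cytoskeleton. Simple epithelia build them from pairs of a type I keratin (Krt18, Krt19, Krt20) and a type II keratin (Krt7, Krt8), whereas mesenchymal and muscle cells use vimentin and desmin. Synemin and nestin are long proteins that enter filaments of vimentin or desmin. Cultured or injured tubule cells are known to carry vimentin and keratins, and Krt20 is used as a marker of tubule injury.

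Values are the log2 processed signal of a probe minus the 75th percentile of the same array, so 0 is the signal that 75% of the probes do not exceed. A difference is GW4064 minus DMSO on this scale, with its standard error (SE) from limma, and a fold is the same difference on the linear scale. The genes were picked with results of this contrast in view, so their differences are given as a description, with no p-value. Which of them lay past the threshold used for all genes is stated for orientation only and supports nothing. The lists of other genes and of cell markers used below were also chosen with earlier results of these data known. Most genes named from them were picked for a small p or after their values were seen. Adjusted p-values printed for them are therefore descriptive and no independent support. Levels are compared only within a probe, since 2 probes can differ in brightness at equal RNA amounts.

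The FXR targets Slc51a and Slc51b, subunits of the bile acid exporter, were 120.6-fold and 10.6-fold higher with GW4064 (log2 fold changes 6.91 ± 0.16 and 3.40 ± 0.073, SE, n = 4 per group), and Nr1h4 itself was lower (-0.45 ± 0.045, SE). Of 10 proximal tubule markers, 10 were tested and 8 passed an adjusted p of 0.05 in limma, all higher with GW4064, beside 20.8% of all tested genes past it. Their summed signal was 65.3 to 74.6 with GW4064 and 37.2 to 45.2 with DMSO, in multiples of the 75th percentile. A summed signal, here and below, is weighted to the brightest probes of its list. In bulk RNA such as this, fewer cells of a type and less RNA per cell cannot be told apart. The arrays lay on 2 slides of 4, with 2 samples of each group on each slide. GW4064 samples held the places 3 and 4 of both slides and DMSO samples the places 1 and 2, so place and treatment cannot be told apart.

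Of the 9 genes, 5 were higher with GW4064 (Synm, Des, Nes, Krt8, Krt18) and 1 was lower (Krt20) at an adjusted p of 0.05 over all genes, the threshold that 20.8% of all tested genes passed (11.8% higher, 8.95% lower). Vim, Krt7 and Krt19 did not pass it. In the same 6 genes the 4 GW4064 values and the 4 DMSO values did not overlap, as was so for 26.2% of all tested genes. Before scaling, the processed signals of the groups were apart for Synm and Krt20 and overlapped for Des, Nes, Krt8 and Krt18. Since the genes were chosen on this contrast, nothing is read from these counts. Synm alone of the 9 differed by 2-fold or more, against 1.4% of all tested genes. Without Synm the median size of the difference among the other members was 0.26 on the log2 scale, beside 0.30 for all genes past the threshold and 0.10 for all tested genes. The median signed difference was 0.23 for the 9 genes and 0.01 for all tested genes.

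**Figure D1:**
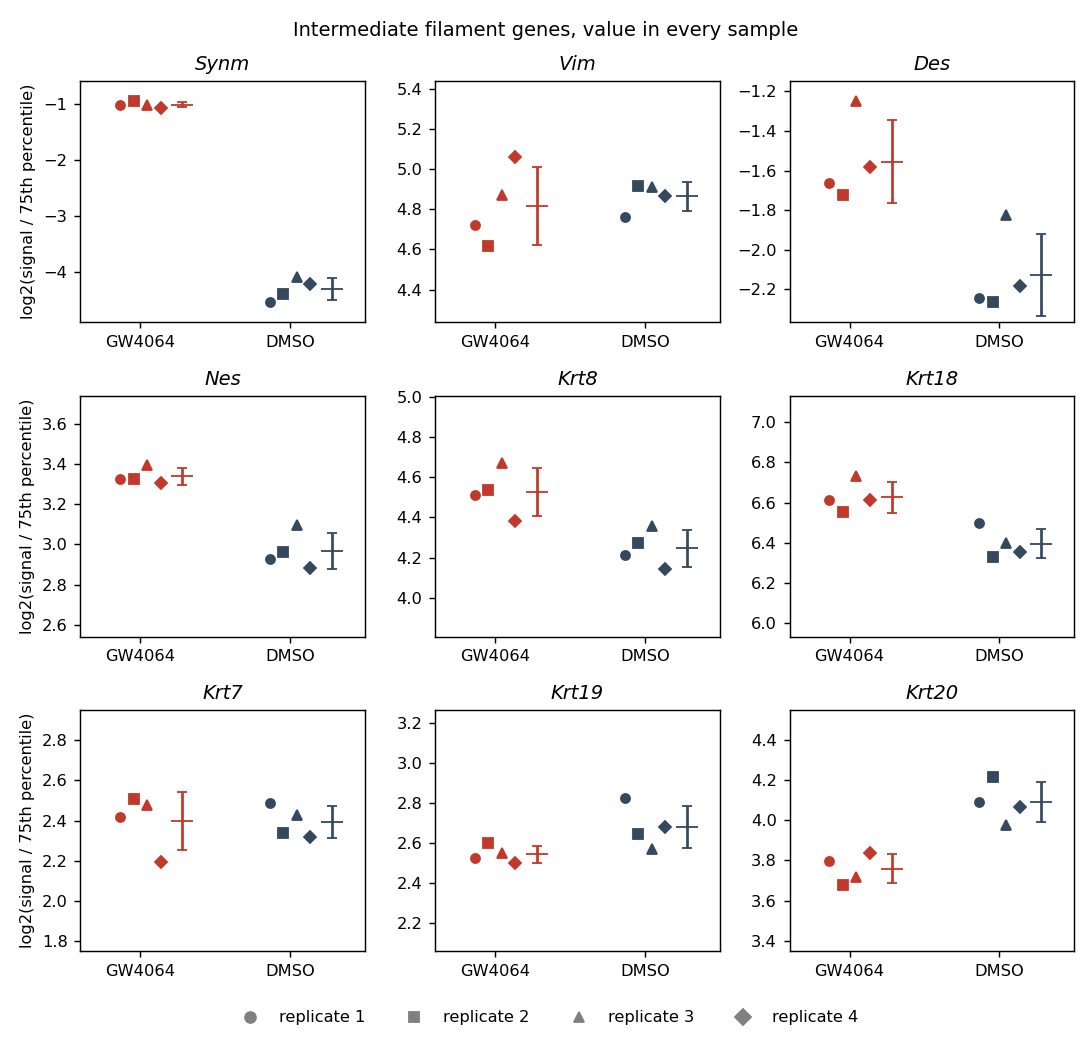
Value of each filament gene in every sample, as log2 signal minus the array's 75th percentile on a separate vertical scale per gene, with GW4064 samples in red at left and DMSO samples in dark blue at right. Marker shapes give the replicate number, and bars show the mean and SD (n = 4); Synm differed by 3.30, Des by 0.57, and Vim, Krt7 and Krt19 overlapped between the groups.

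Synm encodes synemin, which cannot form filaments alone and ties filaments of vimentin or desmin to adhesion sites and to the dystrophin complex. Its gene lies on chromosome 7. The RefSeq promoter window of Synm, 250 bases before to 50 after the gene's start, is shown because this gene had the largest difference of the 9. It spans chr7:67759693-67759992 on the minus strand of GRCm38.p6 and holds 72.7% G or C and 33 CpG, against medians of 52.7% and 7 over 32851 mouse promoter windows.
Synm: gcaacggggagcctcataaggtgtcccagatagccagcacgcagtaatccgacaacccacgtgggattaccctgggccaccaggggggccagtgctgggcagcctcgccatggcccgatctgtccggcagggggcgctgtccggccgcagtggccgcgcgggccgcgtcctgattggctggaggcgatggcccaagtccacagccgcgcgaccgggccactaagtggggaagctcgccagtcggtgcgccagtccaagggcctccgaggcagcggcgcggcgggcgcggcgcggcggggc
The windows were searched on both strands for the IR-1 element that FXR is known to bind together with its partner RXR, written AGGTCANTGACCT, and for 1 arm of that element, written AGGTCA. They were also searched for a TATA box, written TATAAA, for the GC box of Sp1 family factors, written GGGCGG, for the AP-1 element, written TGANTCA, and for the CArG box of muscle genes. None of these motifs occurs in the Synm window, which is therefore all in lower case. Of the 32851 windows, 0.00913% hold the IR-1 letters, 16.3% the single arm, 13.6% the TATA letters, 35.7% the GC box, 7.81% the AP-1 letters and 1.63% a CArG box, where any overlap of 2 motifs was allowed. A match is a string of letters and no evidence of binding, and a window without one says nothing about sites elsewhere.

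The brightest Synm probe (A_55_P2052696) read -1.01, -0.95, -1.01 and -1.07 in GW4064 samples 1 to 4, against -4.54, -4.40, -4.09 and -4.21 in DMSO samples 1 to 4. All 4 GW4064 values lay close together and far above every DMSO value. The processed signals before scaling were 841, 719, 675 and 574 with GW4064, against 63.8, 74.7, 91.2 and 103 with DMSO. The probe was well above background on all 8 arrays, so the DMSO cells gave a weak but measured signal. Its mean value was -1.01 ± 0.048 with GW4064 and -4.31 ± 0.199 with DMSO (SD, n = 4 each), a difference of 3.30 ± 0.092 (SE) or 9.83-fold. The difference was 3.49 on slide 1 and 3.11 on slide 2.

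The other probes of Synm were all higher with GW4064. The groups overlapped in 0 of the 5 probes, where 23.1% of all kept probes had groups that did not overlap. The dimmer probes A_51_P185593, A_55_P2074353 and A_55_P2052699 passed the filter only through the 4 GW4064 arrays, the group where they are high. Nothing is therefore read from their lack of overlap. A_55_P2052690, a second probe of the transcript read by the brightest probe (NM_201639), read -1.65, -1.62, -1.58 and -1.70 with GW4064, against -5.18, -5.38, -4.73 and -5.09 with DMSO. That is 11.0-fold (3.46 ± 0.12, SE), again with every GW4064 value high. A_51_P185593, for the same accession, read -2.85, -2.81, -3.06 and -2.84 with GW4064 and was at background on the DMSO side, being well above it on 0 of 4 arrays, with measured values of -6.96, -6.45, -6.03 and -6.37. Each DMSO array was then taken at the higher of its own value and the lowest signal of any probe well above background there. This gave 9.74-fold, a rough figure and no lower bound. In DMSO sample 3 that lowest signal was -6.30, and this probe was not well above background at -6.03. A_55_P2074353, also for NM_201639, read -3.84, -4.04, -4.25 and -4.39 with GW4064, against -6.74, -7.84, -5.82 and -6.94 with DMSO. It was well above background on 4 of 4 GW4064 arrays but on 1 of 4 DMSO arrays, so the other DMSO values are background readings and no fold is given.

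A_55_P2052699 is the only one of the 5 Synm probes assigned to a different transcript, NM_183312. It read -4.66, -4.46, -4.76 and -5.03 with GW4064, against -7.34, -7.87, -6.04 and -6.99 with DMSO. It was well above background on 4 of 4 GW4064 arrays and on DMSO replicate 3 alone among the DMSO arrays. No fold is given for it either, and the 2 transcripts are not compared.

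GW4064 replicate 4 was the lowest GW4064 sample in 4 of 5 Synm probes. DMSO replicate 3 was the highest DMSO sample in both probes that were well above background on all 8 arrays, and at the other 3 probes most or all DMSO values are background readings, whose order has no meaning. The spread between samples was 0.048 to 0.240 (SD) with GW4064 and 0.199 to 0.826 with DMSO over the 5 probes, with the widest spreads at the probes near background. Probes of 1 gene read the same RNA, so they are not replicates of the condition.

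**Figure D2:**
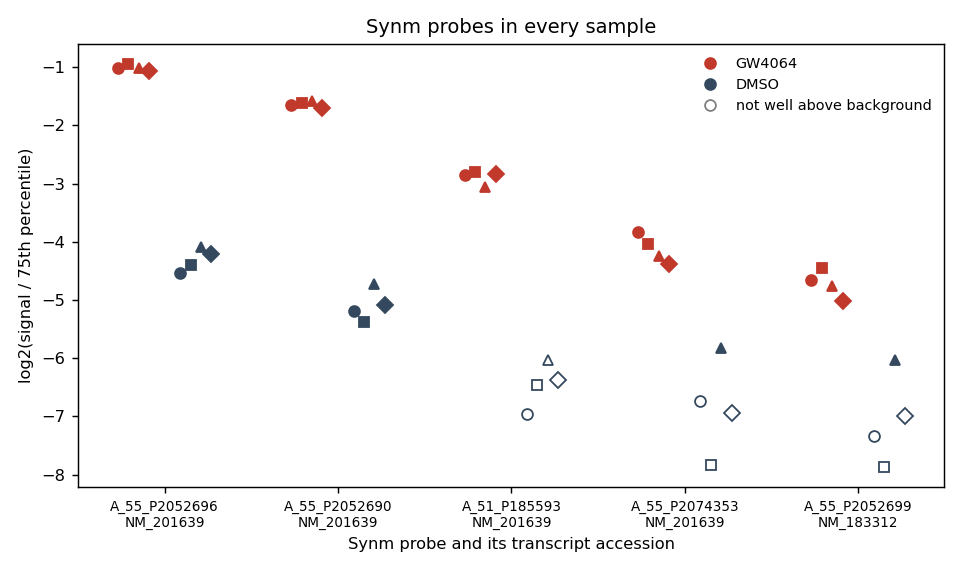
The 5 Synm probes from brightest to dimmest, each with 4 GW4064 samples (red, left) and 4 DMSO samples (dark blue, right); circles, squares, triangles and diamonds are replicates 1 to 4, and the vertical axis is log2 signal minus the array's 75th percentile. Open symbols, all of them DMSO samples, were not well above background. The groups are apart at every probe. Nothing is read from this at the probes with open symbols, which passed the filter only through the GW4064 arrays.

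Vim encodes vimentin, the main filament partner of synemin outside muscle. It read 4.72, 4.62, 4.87 and 5.06 with GW4064, against 4.76, 4.92, 4.91 and 4.87 with DMSO. The groups overlapped, since GW4064 samples were both the lowest and the highest of the 8. The difference was -0.05 ± 0.093 (SE), with -0.17 on slide 1 and 0.08 on slide 2. The Vim difference was smaller than the spread of the GW4064 samples (0.19, SD, n = 4).

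Des encodes desmin, the filament protein of muscle, which pericytes and mesangial cells also carry. Its probe is printed 10 times on each array, and the mean of the 10 spots was -1.66, -1.72, -1.25 and -1.58 in GW4064 samples 1 to 4, against -2.24, -2.26, -1.82 and -2.18 in DMSO samples 1 to 4. Every GW4064 sample was above every DMSO sample, and replicate 3 was the highest in both groups. The difference was 0.57 ± 0.13 (SE), or 1.49-fold, and was 0.56 on slide 1 and 0.59 on slide 2. Spots within an array differed by 0.021 to 0.116 (SD of 10 spots, all well above background), less than the 0.21 between samples of either group (SD, n = 4).

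Nes encodes nestin, a filament protein of progenitor cells and podocytes that joins vimentin. It read 3.33, 3.32, 3.40 and 3.30 with GW4064, against 2.93, 2.96, 3.09 and 2.88 with DMSO. The GW4064 samples lay within a narrow band above all DMSO samples, and replicate 3 was again the highest of each group. The difference was 0.37 ± 0.051 (SE), or 1.29-fold, with 0.38 on slide 1 and 0.36 on slide 2.

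Of 9 markers of pericytes and smooth muscle, 9 were tested, 4 rose as Des and Nes did (Tagln, Cnn1, Acta2, Pdgfrb), 0 fell and 5 did not pass an adjusted p of 0.05 in limma, beside 20.8% of all genes past it. The smooth muscle genes Tagln and Cnn1 were higher by 0.53 ± 0.099 and 0.54 ± 0.11 (SE, n = 4 per group, limma adjusted p = 0.0072 and 0.0102). Acta2 (0.49 ± 0.11, adjusted p = 0.0157) and Pdgfrb (0.33 ± 0.067, adjusted p = 0.0116) were named after their values were seen. Those that did not pass were Rgs5 (-0.14), Cspg4 (-0.12), Mcam (-0.08), Notch3 (0.05) and Myh11 (0.22); the scanner software marked Myh11 as well above background on 7 of 8 arrays and the other 4 on all 8. The summed signal of the list was 74.97 to 92.7 with GW4064 and 57.7 to 69.6 with DMSO, again highest at replicate 3 of each group. It came mostly from the bright probes of Tagln and Acta2, so it largely restates these genes. The mean log2 value of the list, which weights its genes equally, was 0.340 to 0.441 with GW4064 and 0.089 to 0.315 with DMSO. Replicate 3 was also the highest of each group in Krt8, Fn1 and Zeb1, so this order was not particular to Des, Nes and these markers. The part of pericytes and smooth muscle in the Des and Nes results was not tested.

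Other cell markers gave a mixed picture, and their counts stand beside the 20.8% of all tested genes past the threshold. Podocyte markers, which bear on Nes, numbered 6 tested with 0 past the threshold (summed signal 8.87 to 10.6 with GW4064 and 8.14 to 10.4 with DMSO). Of the 6 fibroblast markers, 5 were tested and 0 passed (20.7 to 22.5 with GW4064 and 16.4 to 21.6 with DMSO), and Lum was well above background on no array. Leukocyte markers had 2 of 6 tested genes higher (Csf1r by 0.75 ± 0.046 and Cd14 by 0.40 ± 0.042, SE), with a summed signal of 21.3 to 24.0 with GW4064 and 16.7 to 18.1 with DMSO. Ptprc, the marker of all leukocytes, differed by -0.90 ± 0.54 (SE, limma adjusted p = 0.279) without overlap, DMSO replicate 4 reading -1.53 beside -4.10 to -4.01 in the other DMSO samples. Endothelial markers had 2 of 6 higher, Plvap and Cdh5 (2.67 to 2.95 with GW4064 and 2.00 to 2.84 with DMSO), and Tek was well above background on no array. The fibroblast sum came mostly from Col1a2 and the endothelial sum mostly from Kdr, and neither gene passed. The part of these cells in the filament results was not tested.

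**Figure D3:**
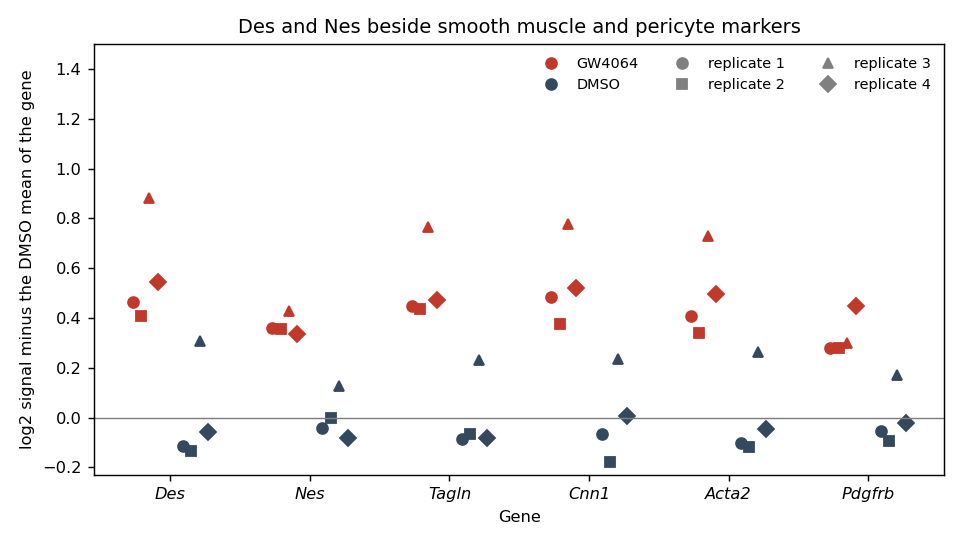
Des and Nes beside 4 smooth muscle and pericyte markers, each as log2 signal minus that gene's DMSO mean, with GW4064 samples in red (left of each pair) and DMSO samples in dark blue (right). Drawn are the 4 of 9 tested markers that passed an adjusted p of 0.05. The 5 that did not pass are not drawn (Rgs5 -0.14, Cspg4 -0.12, Mcam -0.08, Notch3 0.05, Myh11 0.22). Replicate 3 (triangles) is the highest sample of both groups in Des, Nes, Tagln, Cnn1 and Acta2. In Pdgfrb it is the highest of the DMSO samples only. It is also the highest of both groups in genes not drawn, such as Krt8, Fn1 and Zeb1.

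Krt8 and Krt18 encode the type II and type I keratins that pair in simple epithelia. Their genes lie close together on chromosome 15, with 2 listed genes between them in the RefSeq gene table, and their promoter windows are shown with that of Krt20, whose difference went the opposite way. The windows are chr15:102004293-102004592 on the minus strand for Krt8, chr15:102027966-102028265 on the plus strand for Krt18 and chr11:99438104-99438403 on the minus strand for Krt20 (GRCm38.p6, RefSeq). Capitals mark the searched motifs.
Krt8: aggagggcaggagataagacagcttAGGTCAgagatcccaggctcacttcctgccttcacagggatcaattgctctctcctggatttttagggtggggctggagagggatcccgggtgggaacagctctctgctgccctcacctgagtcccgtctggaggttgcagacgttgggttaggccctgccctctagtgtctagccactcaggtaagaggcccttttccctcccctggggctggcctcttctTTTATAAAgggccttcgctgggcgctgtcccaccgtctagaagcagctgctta
Krt18: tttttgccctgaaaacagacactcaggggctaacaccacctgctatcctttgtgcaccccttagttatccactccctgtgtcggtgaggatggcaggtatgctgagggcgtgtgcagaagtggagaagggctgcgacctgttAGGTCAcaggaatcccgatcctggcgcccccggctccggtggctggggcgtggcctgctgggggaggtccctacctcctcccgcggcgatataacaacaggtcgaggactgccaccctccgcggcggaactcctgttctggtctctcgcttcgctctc
Krt20: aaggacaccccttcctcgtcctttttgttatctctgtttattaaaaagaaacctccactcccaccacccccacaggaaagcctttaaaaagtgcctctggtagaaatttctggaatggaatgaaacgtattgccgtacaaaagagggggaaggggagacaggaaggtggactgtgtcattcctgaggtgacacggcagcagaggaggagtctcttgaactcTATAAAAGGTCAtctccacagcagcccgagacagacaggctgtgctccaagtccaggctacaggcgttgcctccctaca
Each of the 3 windows holds AGGTCA once on the strand of the gene, beginning at position -225 from the start site of Krt8, -108 from that of Krt18 and -23 from that of Krt20. The letters TATAAA stand in the Krt8 window, where a match on each strand overlaps, and in the Krt20 window, where they run straight into AGGTCA. Of the 8 members with a window (all but Krt19), 4 hold AGGTCA (Krt7, Krt8, Krt18, Krt20), among them genes that were higher, lower and not past the threshold. The IR-1, AP-1 and CArG letters are in 0 of the 8.

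Krt8 read 4.51, 4.54, 4.67 and 4.38 with GW4064, against 4.21, 4.27, 4.36 and 4.14 with DMSO. The lowest GW4064 sample, replicate 4, lay just above the highest DMSO sample, replicate 3. Replicate 3 was the highest sample of each group, as in Des and Nes. The difference was 0.28 ± 0.070 (SE), or 1.21-fold, and 0.28 on each slide. Before scaling, the processed signals were 25068 to 38769 with GW4064 and 27375 to 33527 with DMSO, which overlap. Krt8 no longer lay past the all-gene threshold on leaving out any 1 of 6 samples (GW4064 replicates 1, 2 and 3, DMSO replicates 1, 2 and 4), with differences of 0.23 to 0.29.

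Krt18 read 6.61, 6.55, 6.73 and 6.61 with GW4064, against 6.50, 6.33, 6.40 and 6.36 with DMSO. GW4064 replicate 2 and DMSO replicate 1 were the closest samples of the 2 groups, which did not overlap. The difference was 0.23 ± 0.054 (SE), or 1.17-fold, with 0.17 on slide 1 and 0.30 on slide 2. Krt18 no longer lay past the all-gene threshold without DMSO replicate 2 (0.21) or DMSO replicate 4 (0.22), nor with quantile normalization (0.16). The Krt18 value minus the Krt8 value of the same sample averaged 2.10 ± 0.093 with GW4064 and 2.15 ± 0.121 with DMSO (SD, n = 4 each), and the ranges of the 2 groups overlapped (2.01 to 2.23 with GW4064 and 2.04 to 2.29 with DMSO).

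Krt7, the type II keratin of ducts, read 2.42, 2.51, 2.48 and 2.19 with GW4064, against 2.49, 2.34, 2.43 and 2.32 with DMSO. The groups overlapped, GW4064 replicates 2 and 4 being the highest and the lowest of the 8 samples, and the difference was 0.0053 ± 0.076 (SE). Krt19, a type I keratin of ducts and progenitor cells, read 2.52, 2.60, 2.55 and 2.50 with GW4064, against 2.82, 2.65, 2.57 and 2.68 with DMSO. Most GW4064 samples were below the DMSO samples, but replicate 2 with GW4064 exceeded DMSO replicate 3. The Krt19 difference was -0.14 ± 0.057 (SE), with -0.17 on slide 1 and -0.10 on slide 2.

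Krt20, a type I keratin of gut and urothelium that also appears in injured tubules, was the member that fell. It read 3.80, 3.68, 3.72 and 3.84 with GW4064, against 4.09, 4.22, 3.98 and 4.07 with DMSO. Every GW4064 sample was below every DMSO sample. The difference was -0.33 ± 0.060 (SE), 1.26-fold lower with GW4064, and it was -0.42 on slide 1 and -0.24 on slide 2. Beside it, urothelial markers had 1 of 4 tested genes lower, Upk1a (-0.28 ± 0.065, SE, limma adjusted p = 0.0195). Of all tested genes, 20.8% were past the threshold and 8.95% were lower. The summed signal of the urothelial list was 0.357 to 0.389 with GW4064 and 0.383 to 0.447 with DMSO. The Upk1a call was lost with normexp (-0.20) and on leaving out GW4064 replicate 1 or DMSO replicate 4. Upk1b, Upk2 and Upk3a were well above background on no array, Krt5 and Krt14 of that list are also among the other keratins, and the part of such cells in the Krt20 result was not tested. Distal nephron and collecting duct markers had 2 of 7 tested genes lower, again beside 8.95% of all tested genes. These were Umod (-0.71 ± 0.16, SE) and Slc12a3 (-0.77 ± 0.22, SE). Calb1, Slc12a1 and Scnn1g were well above background on too few arrays to be tested. The summed signal of the list was 3.05 to 3.49 with GW4064 and 3.08 to 4.25 with DMSO. It came mostly from Gata3 and Avpr2, and neither passed. The groups overlapped for both Umod and Slc12a3. With normexp background correction the differences were -0.39 for Umod and -0.091 for Slc12a3, which then did not pass. Slc12a3 was above background on 2 of 4 GW4064 arrays and lost its call on leaving out 6 of the 8 samples in turn (every one but GW4064 replicate 2 and DMSO replicate 3).

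**Figure D4:**
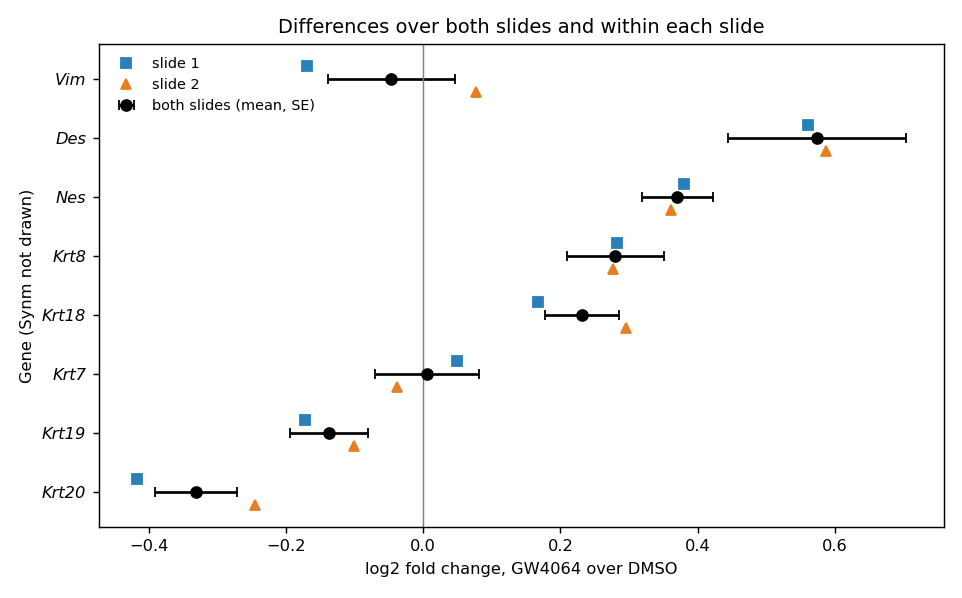
Log2 fold change (GW4064 over DMSO) of the 8 members other than Synm over both slides (black, with SE, n = 4 per group) and within slide 1 (blue squares) and slide 2 (orange triangles, 2 samples of each group per slide). Des, Nes and Krt8 had nearly equal values on both slides, whereas Vim and Krt7 lay on opposite sides of 0.

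Genes outside the member list were read through 5 further lists. Among other keratins, 17 of 48 were tested, 5 rose and 1 fell (median difference 0.09), beside 20.8% of all tested genes past the threshold. Krt17, a type I keratin of basal and stressed epithelium, was 1.90-fold higher (0.93 ± 0.10, SE, n = 4 per group, limma adjusted p = 0.00044). It read -0.69, -0.49, -0.55 and -0.57 with GW4064, against -1.78, -1.33, -1.35 and -1.56 with DMSO, with no overlap, and its difference was 0.97 on slide 1 and 0.89 on slide 2. Krt13 (0.37 ± 0.069), Krt81 (0.26 ± 0.062), Krt10 (0.23 ± 0.057) and Krt16 (0.28 ± 0.084, named after its values were seen) were also higher, and Krt79 was lower (-0.23 ± 0.062, SE). Leaving out single samples ended the call of Krt79 in 5 of 8 cases, of Krt81 in 2 and of Krt10 in 2, and normexp ended that of Krt79 (-0.12) and Krt10 (0.18). Without a filter on dim probes both Krt79 and Krt10 lost it. Krt10 also lost it with median centring and with the mean of its probes (0.14). Krt16 (limma adjusted p = 0.0459) was not followed through left-out samples or other processing. The same holds for the other genes named after their values were seen. Krt14 differed by 0.32 and Krt5, its usual partner, by 0.07, and neither passed.

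Of 13 other intermediate filament proteins, 8 were tested, 1 rose and 0 fell (median difference 0.10), beside 20.8% of all tested genes past the threshold. The called gene was Iffo1, which carries a filament rod domain (0.26 ± 0.058, SE, limma adjusted p = 0.0172). Prph, peripherin of peripheral neurons, differed by 0.31 ± 0.096 (adjusted p = 0.0538) and the nuclear lamin gene Lmnb1 by -0.44 ± 0.20 (adjusted p = 0.151), and neither passed. Iffo2 (0.14 ± 0.065, SE) and the lens protein gene Bfsp2 (0.57 ± 0.62, SE) did not pass either. Gfap, Nefl, Nefm, Nefh and Bfsp1 were not tested, being well above background on too few arrays.

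Plakins and desmosome proteins hold filaments at junctions. Of 17 such genes, 16 were tested, 6 rose and 1 fell (median difference 0.12), beside 20.8% of all tested genes past the threshold. The plakins Ppl and Eppk1, which bind keratin and vimentin filaments, were 1.60-fold and 1.47-fold higher (0.68 ± 0.060 and 0.55 ± 0.060, SE, limma adjusted p = 0.000152 and 0.000467). Dst, a plakin of hemidesmosomes, and Pkp2, a desmosome plaque protein, were each higher by 0.33. Dsp, the desmoplakin that fixes keratins to desmosomes, was lower by its brightest probe (-0.28 ± 0.051, SE, adjusted p = 0.00591). With the probes of the gene averaged, Dsp stayed lower but fell short of the threshold (-0.15, limma adjusted p = 0.262). Plec, the plakin that binds synemin, and Pkp1, both named after their values were seen, were higher by 0.17 ± 0.047 and 0.63 ± 0.16 (SE).

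Of 18 genes for proteins that bind synemin or belong to the dystrophin complex, 16 were tested, 2 rose and 3 fell (median difference -0.04). The share of all tested genes past the threshold was 20.8%. The adhesion-site proteins Actn1 (alpha-actinin) and Zyx (zyxin) were higher by 0.30 ± 0.064 and 0.22 ± 0.035 (SE, limma adjusted p = 0.0129 and 0.0034). Sntb2, a syntrophin, Dtnb, a dystrobrevin, and Prkar2b, a regulatory subunit of protein kinase A, were lower by the log2 differences -0.33 ± 0.034, -0.20 ± 0.050 and -0.39 ± 0.059 (SE, limma adjusted p = 0.000349, 0.0281 and 0.00279). Dtnb lost its call on leaving out 4 of the 8 samples in turn (GW4064 replicates 1 and 4, DMSO replicates 1 and 2) and without a filter on dim probes. Dmd and Actn2, the partners known from muscle, were well above background on no array. The largest size among these 5 called genes was 0.39, beside 3.30 for Synm.

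Of 10 genes that mark epithelial or mesenchymal state, 9 were tested, 4 rose and 1 fell (median difference 0.13). The share of all tested genes past the threshold was 20.8%. Cdh2, the cadherin of proximal tubule cells, was lower (-0.35 ± 0.055, SE, limma adjusted p = 0.0033). The transcription factors Zeb1 (0.29 ± 0.064) and Snai2 (0.30 ± 0.080), the epithelial adhesion protein Epcam (0.29 ± 0.086) and the matrix protein Fn1 (0.41 ± 0.12, SE) were higher. Snai2, Epcam and Fn1 lost the call on leaving out single samples (4, 6 and 7 of 8 times). They also lost it with normexp, quantile normalization, median centring and no filter on dim probes, as did Snai2 and Fn1 in the deposited table. Cdh1, Snai1, Zeb2 and S100a4 did not pass, with differences of -0.11 to 0.13.

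**Figure D5:**
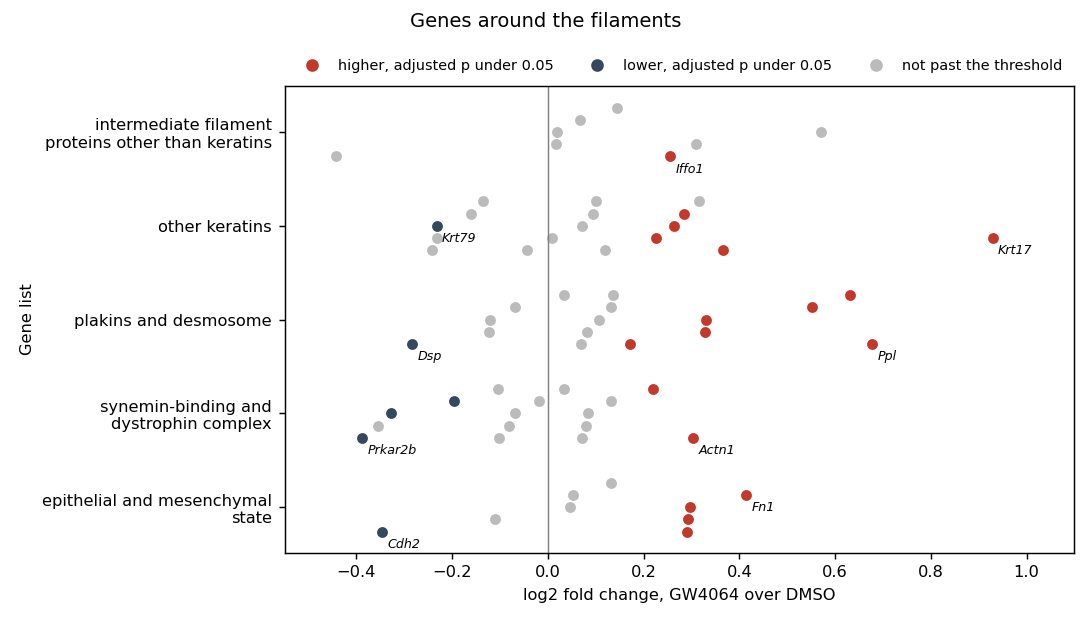
Log2 fold change (GW4064 over DMSO) of each tested gene in 5 lists around the filaments; red points were higher and dark blue points lower at a limma adjusted p under 0.05 over all genes, and grey points did not pass. The vertical scatter within a list only separates points; Krt17 (0.93) and Ppl (0.68) lie farthest to the right of the called genes.

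Genes whose values followed those of Synm most closely over the 8 samples were found by Pearson's r among all tested genes. The 6 highest were Slc25a43 (0.9993), Tnfsf15 (0.9992), Alpl (0.9988), C3 (0.9983), Ces2b (0.9982) and Epha7 (0.9981), whose differences were 1.19 to 3.08. The 6 lowest were Elovl7 (-0.9990), Arsa (-0.9956), Clstn2 (-0.9952), Golm1 (-0.9940), Fndc4 (-0.9936) and Slc31a2 (-0.9935), whose differences were -0.24 to -0.96. The samples fall into 2 groups, so r here measures mainly how tightly each group clusters, and 4 samples per group are too few for a value within a group.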

How the data were processed

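RNA of 8 samples (4 GW4064, 4 DMSO) was measured on 1-colour Agilent arrays. The deposited scanner files hold spot intensity from which the scanner software, Feature Extraction 10.7.3.1, had already taken the background, per the file headers. Agilent Feature Extraction 10.7 and limma are the tools listed in the submitters' processing notes. The authors also deposited a table of log2 values (every column median 6.598, scale and centring unstated), used only as an alternative. Its columns matched the signals of their own arrays. Sorted by size, the columns differed by at most 0.01, as they would after quantile normalization. This alternative and quantile normalization are therefore not independent of each other.

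Each array held 44397 spots, of which 1377 controls and 98 to 174 outlier spots marked by the scanner software were left out. Log2 processed signals were averaged over the spots of a probe (39429 probes), and the array's 75th percentile was subtracted. A probe was kept if well above background on at least 4 of 8 arrays with no array's spots all marked (24723 probes). Accessions were matched without versions to the RefSeq gene table of GRCm38.p6 for names only (27228 probes, 69.1%, received a symbol), because the file headers name build mm9; promoter windows come from RefSeq on GRCm38.p6. Each gene took its brightest kept probe (14473 genes). The contrast of GW4064 with DMSO was fitted without covariates in R 4.3.3 with limma 3.58.1 (lmFit, eBayes), with Benjamini-Hochberg adjustment over all genes and a threshold of 0.05. The fit was tested on simulated data.

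The 9 genes and the lists were chosen with earlier results of these data known. Named were all members, up to 5 genes of each pathway list and 2 of each marker list with the smallest p, and the 6 genes most and least like Synm; markers with the brightest probe are covered by their list's summed signal. Alternatives were normexp background correction (offset 50), quantile normalization, median centring, 2 other filters, the mean of a gene's probes, replicate and slide blocks, each slide alone, the deposited table and leaving out each sample. Between 62.6% and 65.7% of probes were well above background on GW4064 arrays and 61.4% to 63.1% on DMSO arrays; the 75th percentile was 1412 ± 207 with GW4064 and 1626 ± 187 with DMSO (SD, n = 4 each). The number of arrays limits the precision.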

Additional observations from a re-analysis of the deposited data

Results flagged for a closer look

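In 170 groups of 4 samples (members, their probes and named genes), 10 held a sample set apart from the other 3 by a gap, as a share of the range, above Dixon's critical value, or 5.88%, where chance gives about 5%. Among the members this was the Synm probe A_51_P185593, where GW4064 replicate 3 was low at -3.06 beside -2.85 to -2.81 in the other GW4064 samples. Tagln was high in replicate 3 of both groups, at 5.64 with GW4064 (others 5.31 to 5.35) and 5.11 with DMSO (others 4.79 to 4.81). DMSO replicate 3 was low in Iffo1 (-0.42, others -0.32 to -0.30) and in Prkar2b (-1.05, others -0.91 to -0.90). DMSO replicate 1 was low in Actn1 (0.65, others 0.89 to 0.92) and high in Cd14 (2.70, others 2.64) and in Fndc4 (2.20, others 2.13 to 2.14). GW4064 replicate 1 was low in Krt13 (-1.85, others -1.68 to -1.65) and in Ces2b (-0.19, others -0.14 to -0.13).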

How the results depend on the processing

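Over the 19 alternatives the Synm difference was 2.46 (normexp) to 3.49 (slide 1 alone), and the signs of Des, Nes, Krt8, Krt18 and Krt20 stayed as reported; the members were chosen on this contrast, so this supports nothing about them. Slide 1 alone called 966 genes, 6 genes of the 5 pathway lists and 3 members, and slide 2 alone 220, 2 and 1, against 3006, 24 and 6 with all samples; fewer samples enter these fits. Leaving out each sample in turn gave 2076 to 2822 genes, 15 to 23 list genes (15 without DMSO replicate 2), 4 to 6 members and a Synm difference of 3.22 to 3.37. Krt8 also fell short of the threshold with no filter on dim probes (0.28), where more genes were tested, and Krt18 in the deposited table (0.155); the cause for Krt18 was not tested. On a single slide Krt8, Krt18 and Krt20 fell short on either, Des and Nes on slide 2. Vim turned sign on slide 2 alone (0.077) and on leaving out samples (-0.13 to 0.021), as did Krt7 on slide 2 alone (-0.038), with quantile normalization (-0.0078), median centring (-0.0099), the deposited table (-0.0075) and on leaving out samples (-0.031 to 0.074), and Bfsp2 on leaving out samples (-0.056 to 0.95). Same-numbered samples of the 2 groups did not as a rule deviate together (r = -0.13, -0.03, 0.19 and -0.02 over genes for numbers 1 to 4). The samples numbered 3 were the exception and correlated best with each other. Not every sample correlated best with its own number, so the numbers were not taken as pairs. For some genes a block on the number changed the SE. With the replicate number as a block the SE was 0.037 for Des and 0.036 for Tagln, beside 0.130 and 0.099 without it. For Krt20 it was 0.064 beside 0.060. Each number lies on a single slide, so this block also takes out the slide. With the slide alone as a block the SE was 0.097 for Des and 0.085 for Tagln. A fit with the replicate number as a block called 2322 genes, 19 list genes and the 6 members, with Synm at 3.30; Krt10, Krt81, Dtnb, Actn1 and Upk1a did not pass it and Prph did. Normexp ran on median spot signals, leaving out 6 spots with extreme local background, and called 2243 genes. Probes near background limit what can be said of DMSO levels at 3 of 5 Synm probes.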
